A study of Mus musculus with 8 samples.

Results

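The genes described here are 9 members of the signaling chain by which secretagogues act on the exocrine pancreas, chosen by symbol out of the 48709 genes with a value in each library. They are the receptors *Cckar*, *Chrm1*, *Chrm3*, *Sctr*, and *Vipr1*, the G protein α subunits *Gnaq* and *Gna11*, the phospholipase *Plcb1*, and the regulator *Rgs2*. All 9 were found. RNA-Seq was done on whole pancreas of male mice aged 8 weeks, 24 hours after saline or after palmitoleic acid (POA) and ethanol, the fatty acid ethyl ester model of severe acute pancreatitis (FAEE-SAP). There were 2 libraries in each of 4 groups: WT saline, WT FAEE-SAP, cKO saline, and cKO FAEE-SAP. cKO mice carry floxed *Pfkfb3* and Cre under the *Pdx1* promoter, which is active in the pancreatic progenitors that give rise to acinar, duct, and endocrine cells. Per the study's methods, WT mice were purchased, so the genotypes also differ in where the mice came from and in carrying Cre. The methods give an analgesic to mice of the model and do not say whether saline mice received it. The labels number the 2 libraries of a group and do not name their animals, so p-values measure the spread between these libraries.

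In an acinar cell, cholecystokinin at CCKAR and acetylcholine at the muscarinic receptors CHRM1 and CHRM3 activate the G proteins Gq and G11. These switch on phospholipase C β, which cleaves a membrane lipid into diacylglycerol and IP3, and IP3 releases Ca2+ from the endoplasmic reticulum so that zymogen granules are secreted. Secretin and VIP act on SCTR and VIPR1, which couple mainly to Gs and cAMP, and RGS2 shortens the signal by speeding the return of Gαq to its inactive state. Overstimulation of CCKAR is itself a standard way to cause acute pancreatitis in mice.

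Expression is given as scaled RPKM, which is the deposited RPKM (reads per length of exon and per library size) divided by a factor for the library. Factors of WT FAEE-SAP libraries, 2.02 and 1.94, stood apart from those of cKO FAEE-SAP (1.05 and 0.975) and of saline (0.621 to 0.866). Without scaling, all genes had a median shift on the log2 scale of 1.24 with FAEE-SAP in WT, 0.57 with FAEE-SAP in cKO, and -0.91 in cKO against WT with FAEE-SAP, so each direction below is relative to that shift. Libraries held 22.8 to 37.6 M reads, worked out from the values. Tests used limma on log2(scaled RPKM + 0.1), a scale that understates the change of low genes. The threshold was a fold of 2 and an adjusted p of 0.05 (Benjamini-Hochberg, all genes with at least 0.5 RPKM in 2 libraries of the comparison), and genes past both are termed called. An exact permutation test of 2 libraries against 2 cannot go below p = 0.33.

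*Cckar* had the highest level of the 9 genes in 7 of the 8 libraries and in every group mean, and the gene lies on chromosome 5 of GRCm38 from 53697776 to 53707705. Its scaled RPKM was 71.8 and 61.0 in WT saline, 23.8 and 4.92 in WT FAEE-SAP, 59.6 and 63.3 in cKO saline, and 58.8 and 90.6 in cKO FAEE-SAP. Both WT FAEE-SAP libraries were lower than the other 6, and they also differed from each other more than the libraries of any other group did on a log scale. The values rest on between 1142 and 10016 reads per library. With FAEE-SAP in WT the log2 fold change was -2.60 (SE 0.68, 95% CI -4.29 to -0.91), which is 6.06-fold lower, and it did not pass the threshold (limma, adjusted p = 0.0758, unadjusted p = 0.00961). It passed when all 8 libraries were fitted in 1 model (limma, adjusted p = 0.0419). It did not pass with quantile normalization (limma, adjusted p = 0.105) or without a filter on low values (limma, adjusted p = 0.147). In cKO it was 0.25 (95% CI -0.42 to 0.92, limma, adjusted p = 0.760).

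With FAEE-SAP, *Cckar* was 6.68-fold higher in cKO than in WT (log2 fold change 2.74, SE 0.71, 95% CI 0.99 to 4.49), again short of the threshold (limma, adjusted p = 0.138). This log2 fold change was 1.62 without WT FAEE-SAP replicate 2 and 3.86 without replicate 1. With saline the genotypes overlapped, with a log2 fold change of -0.11 (95% CI -0.57 to 0.35). The difference in response between the genotypes, the interaction term over all 8 libraries, was 2.85 on the log2 scale (SE 0.89, limma, adjusted p = 0.284). WT FAEE-SAP replicate 2 set much of the size of the difference between WT groups. The log2 fold change was -1.47 without it and -3.72 without replicate 1, each with 1 WT FAEE-SAP library left. It was -2.48 without WT saline replicate 1 and -2.72 without WT saline replicate 2. As deposited, *Cckar* was 48.1 and 9.52 RPKM in WT FAEE-SAP against 52.3 and 52.8 in WT saline, a log2 fold change of -1.29.

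*Chrm3*, the muscarinic receptor that carries most of the cholinergic signal in acinar cells, was expressed near 1 RPKM. It had a scaled RPKM of 1.43 and 1.40 in WT saline, 1.16 and 0.725 in WT FAEE-SAP, 1.93 and 1.47 in cKO saline, and 1.34 and 1.20 in cKO FAEE-SAP. The FAEE-SAP libraries lay under the saline libraries in both genotypes, without overlap. The log2 fold change was -0.57 (95% CI -1.25 to 0.11, adjusted p = 0.248) in WT and -0.38 (95% CI -0.94 to 0.17, adjusted p = 0.593) in cKO, and neither passed in limma. As deposited, both values became positive, at 0.65 and 0.22.

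*Chrm1*, the other muscarinic member, was hardly detected. It had 10 to 41 reads per library and a scaled RPKM of 0.0243 to 0.219, with both WT FAEE-SAP libraries (0.0863 and 0.0243) lowest. As deposited, WT FAEE-SAP replicate 1 (0.175 RPKM) was above both WT saline libraries (0.0760 and 0.113). *Chrm1* shares 329 bases with Gm22820 on the opposite strand, and whether counting used strand is not stated. *Sctr*, the secretin receptor, had 2 to 14 reads per library and 0.0392 to 0.241, with cKO FAEE-SAP replicate 1 highest. Neither reached 0.5 RPKM in any library, so neither was tested, and no difference was read from these counts.

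*Vipr1*, a receptor for VIP, had a scaled RPKM of 0.940 and 1.93 in WT saline, 0.507 and 0.380 in WT FAEE-SAP, 2.31 and 1.04 in cKO saline, and 2.41 and 0.918 in cKO FAEE-SAP. The WT FAEE-SAP libraries were the lowest of the 8, and the libraries of each of the other groups differed from each other by more than their group means did. The log2 fold change with FAEE-SAP was -1.43 (SE 0.37, 95% CI -2.35 to -0.50, limma, adjusted p = 0.0755) in WT and -0.05 (95% CI -1.50 to 1.40, limma, adjusted p = 0.983) in cKO. In cKO against WT with FAEE-SAP it was 1.57 (SE 0.46, limma, adjusted p = 0.167), with 0.91 without cKO FAEE-SAP replicate 1 and 2.22 without replicate 2. As deposited, the WT value shrank to -0.28.

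**Figure D1:**
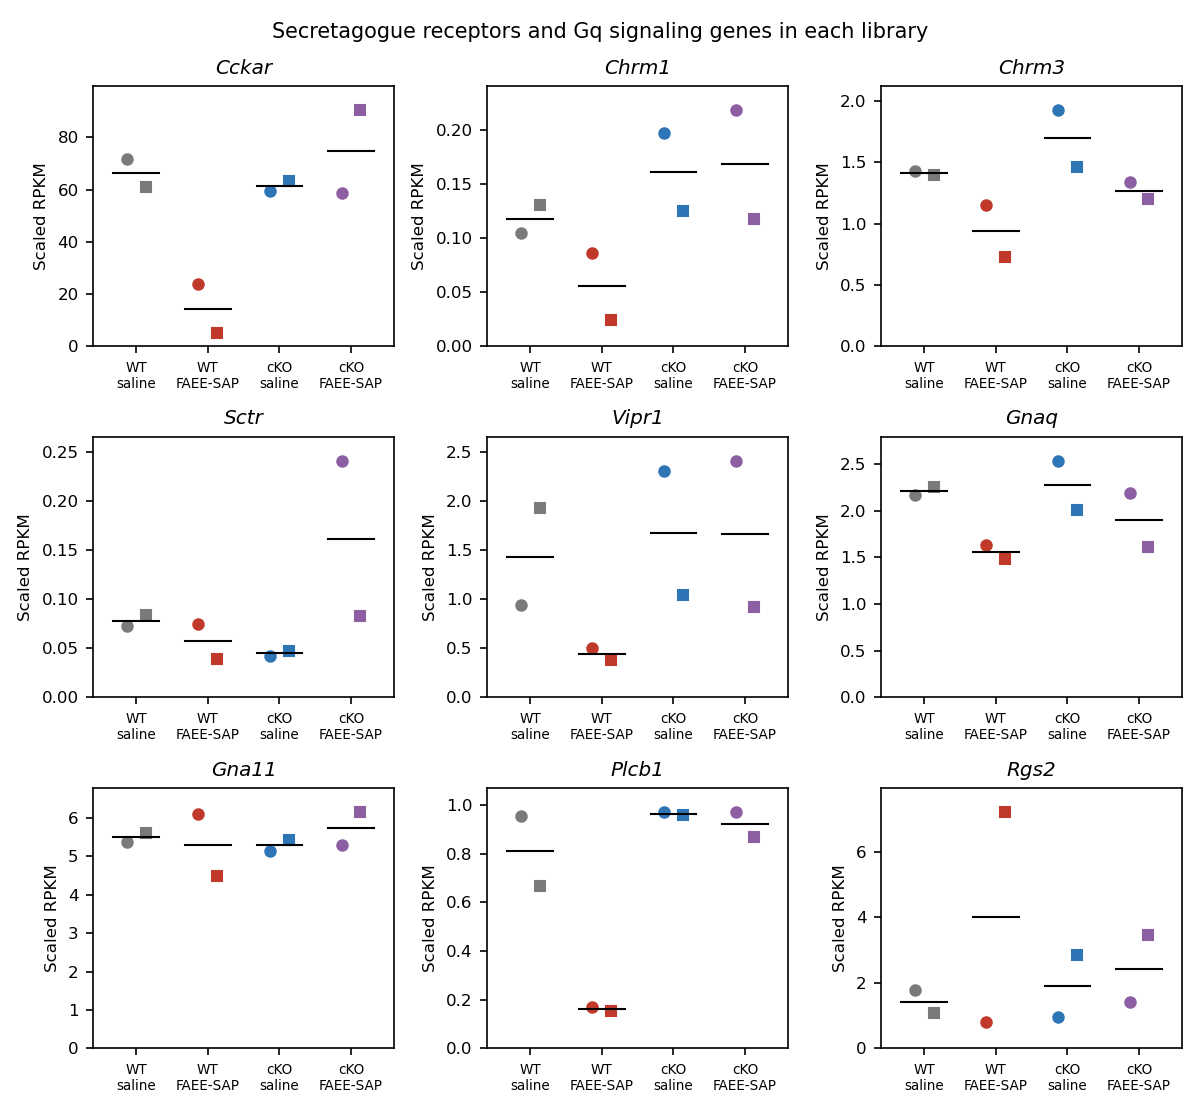
Scaled RPKM (vertical axis, from 0) of the 9 genes in each library of the 4 groups (horizontal axis). Circles are replicate 1, squares are replicate 2, and black lines are means of 2 libraries. Of the 7 members above the minimum, 4 (*Cckar*, *Chrm3*, *Vipr1*, and *Plcb1*) have both WT FAEE-SAP libraries under the other 6, as do 18.1% of 11133 genes, and *Rgs2* has 1 WT FAEE-SAP library at 7.23.

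*Gnaq* and *Gna11* encode the α subunits that couple CCKAR and the muscarinic receptors to phospholipase C. Their coding sequences are 1077 bases each and 80.5% identical (GENCODE vM21, longest coding transcript), with a longest shared run of 38 bases, so a read lying inside such a run cannot be assigned to either gene.

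*Gna11* was the higher of the pair in every library. The values were 5.38 and 5.62 in WT saline, 6.11 and 4.48 in WT FAEE-SAP, 5.15 and 5.43 in cKO saline, and 5.30 and 6.17 in cKO FAEE-SAP, as scaled RPKM. WT FAEE-SAP spanned the values of both saline groups. The log2 fold change with FAEE-SAP was -0.07 (95% CI -0.61 to 0.47) in WT and 0.11 (95% CI -0.37 to 0.59) in cKO, so these intervals leave out a 2-fold change in either direction at this scaling. As deposited, *Gna11* had a log2 fold change of 1.23 in WT (limma, adjusted p = 0.00579) and passed the threshold, close to the median of all genes as deposited, and in cKO against WT with FAEE-SAP it was -0.83.

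*Gnaq* had a scaled RPKM of 2.17 and 2.25 in WT saline, 1.63 and 1.49 in WT FAEE-SAP, 2.54 and 2.01 in cKO saline, and 2.19 and 1.61 in cKO FAEE-SAP. The WT FAEE-SAP libraries lay under both WT saline libraries, and 1 of them (1.63) was above the lower cKO FAEE-SAP library (1.61). Its log2 fold change with FAEE-SAP was -0.48 (95% CI -0.98 to 0.02, limma, adjusted p = 0.194) in WT and -0.26 (95% CI -0.87 to 0.36, limma, adjusted p = 0.731) in cKO. As deposited, it changed sign to 0.78 in WT and 0.36 in cKO.

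*Plcb1* was the member that passed the threshold. It encodes a phospholipase C that Gαq activates, and lies on the plus strand of chromosome 2 from 134786067 to 135475258. Its scaled RPKM was 0.954 and 0.665 in WT saline, 0.169 and 0.152 in WT FAEE-SAP, 0.971 and 0.956 in cKO saline, and 0.972 and 0.868 in cKO FAEE-SAP. Both WT FAEE-SAP libraries were far under every other library, and they differed little from each other. As means, this was 0.160 ± 0.0118 (SD, n = 2) in WT FAEE-SAP against 0.809 ± 0.204 (SD, n = 2) in WT saline and 0.920 ± 0.0735 (SD, n = 2) in cKO FAEE-SAP.

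With FAEE-SAP in WT, *Plcb1* fell by 1.79 on the log2 scale (SE 0.28, 95% CI -2.48 to -1.10, limma, adjusted p = 0.0243). In cKO against WT with FAEE-SAP it was higher by 1.97 (SE 0.26, 95% CI 1.33 to 2.61, limma, adjusted p = 0.0372). In cKO with FAEE-SAP against saline the log2 fold change was -0.06 (95% CI -0.56 to 0.44), and in cKO against WT with saline it was 0.24 (95% CI -0.40 to 0.89). The interaction was 1.72 (SE 0.32, 95% CI 0.97 to 2.48) and missed the threshold (limma, adjusted p = 0.151). These 4 comparisons share libraries, and both calls rest on the same pair of WT FAEE-SAP libraries.

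The *Plcb1* calls rest on few reads and on how low values are treated. The WT FAEE-SAP libraries held about 86.6 and 106.5 reads against 174.3 to 313 in the others, and both were under 0.5 RPKM as deposited, so the gene entered each test only through the group where it was high. Leaving out 1 library ended the call in WT for 3 of the 4 libraries (limma, adjusted p = 0.0587 without WT saline replicate 1, 0.0954 without WT FAEE-SAP replicate 1, and 0.160 without WT FAEE-SAP replicate 2) and left it for WT saline replicate 2 (adjusted p = 0.0325). It ended the call in cKO against WT with FAEE-SAP for each of the 4 (limma, adjusted p = 0.0661 to 0.315), while the log2 fold change stayed between 1.90 and 2.04. With values as deposited, the decrease in WT was 0.81 on the log2 scale, under 2-fold, although all genes had a median of 1.24, and the difference between cKO and WT with FAEE-SAP was 1.30 and still called (limma, adjusted p = 0.0171). With a pseudocount of 1 in place of 0.1, the values were -0.64 and 0.73, both under 2-fold. Without a filter on low values, both calls were lost (limma, adjusted p = 0.0701 and 0.142). In WT the log2 fold change stayed at -1.79 and calls over all genes fell from 751 to 269, so that loss was not particular to *Plcb1*. *Plcb1* also shares 178 bases with 9630028H03Rik on the opposite strand. The study's methods name a directional library kit. Whether the counting used strand, which would be needed to tell the reads of these genes apart, is not stated.

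Because *Plcb1* was called, the sequence before its start is given from the RefSeq promoter table (GRCm38.p6, plus strand, chr2:134785914-134786066), 153 bases long with a GC content of 69.3%. It holds those bases of the 250-base RefSeq window that lie before the gene start in GENCODE vM21. Capitals mark a match to TGGGAA on the minus strand, the core motif of RBPJ proteins.
*Plcb1*: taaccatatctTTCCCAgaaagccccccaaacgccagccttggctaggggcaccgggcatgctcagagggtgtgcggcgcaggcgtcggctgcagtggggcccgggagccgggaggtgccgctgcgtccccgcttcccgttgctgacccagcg
In 250-base windows before the RefSeq start, 4 motifs were searched on both strands, with no overlap among them in *Plcb1*. TGGGAA was found in 21.6% of 32851 RefSeq promoters, the GC box GGGCGG in 32.7%, the E-box CAGCTG in 13%, and the cAMP response element TGACGTCA in 1.55%. The *Plcb1* window had 1 match to TGGGAA, at -239 and printed above. It had 1 match to GGGCGG, at -40, which lies past the GENCODE gene start and so is not in the printed bases. Of the 6 members with a window in the table, *Gna11* also had TGGGAA (2 matches) and *Gnaq*, *Gna11*, *Rgs2*, and *Vipr1* had GGGCGG, while *Chrm3* had none of the 4. *Cckar*, *Chrm1*, and *Sctr* were without a window in the table.

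*Rgs2*, which limits Gαq signaling, varied widely among replicates. Its scaled RPKM was 1.79 and 1.07 in WT saline, 0.808 and 7.23 in WT FAEE-SAP, 0.953 and 2.85 in cKO saline, and 1.41 and 3.46 in cKO FAEE-SAP. The highest and the lowest library of the 8 were both WT FAEE-SAP, and every group overlapped with every other. The log2 fold change in WT was 0.79 (95% CI -1.51 to 3.10, limma, adjusted p = 0.634) and became -0.71 without WT FAEE-SAP replicate 2. The interval reaches past 2-fold in either direction, so no change was detectable with 2 libraries a group.

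Counted over the 7 members tested, 6 were lower and 1 was higher with FAEE-SAP in WT, with 1 called lower, against 3.78% of 10894 genes called lower and 6.89% called in either direction. The median log2 fold change was -0.57 over the 7 members and 0.02 over all genes tested. In cKO, 4 were lower and 3 were higher and limma called 0, against 0.0531% of 9423 genes, with a median of -0.05. In cKO against WT with FAEE-SAP, 6 were higher and 1 was lower with 1 called higher, against 0.818% of 11008 genes called higher and 1.17% in either direction, and the median was 0.42 against 0.00 for all genes. With saline, limma called 0 of the 7 and 0% of 8715 genes, of which 198 had an unadjusted p under 0.05. In the interaction, limma called 0 of the 7 against 0.0719% of 11133 genes. At an unadjusted p under 0.05 there were 3 members (*Cckar*, *Vipr1*, and *Plcb1*) with FAEE-SAP in WT, the same 3 in cKO against WT with FAEE-SAP, 0 in cKO and 0 with saline, and 2 (*Cckar* and *Plcb1*) in the interaction. Over all genes tested, the share with such a p was 27.8% with FAEE-SAP in WT, 9.56% in cKO, 19.6% in cKO against WT with FAEE-SAP, and 12.6% in the interaction. The 2 comparisons with 3 such members share the WT FAEE-SAP libraries.

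**Figure D2:**
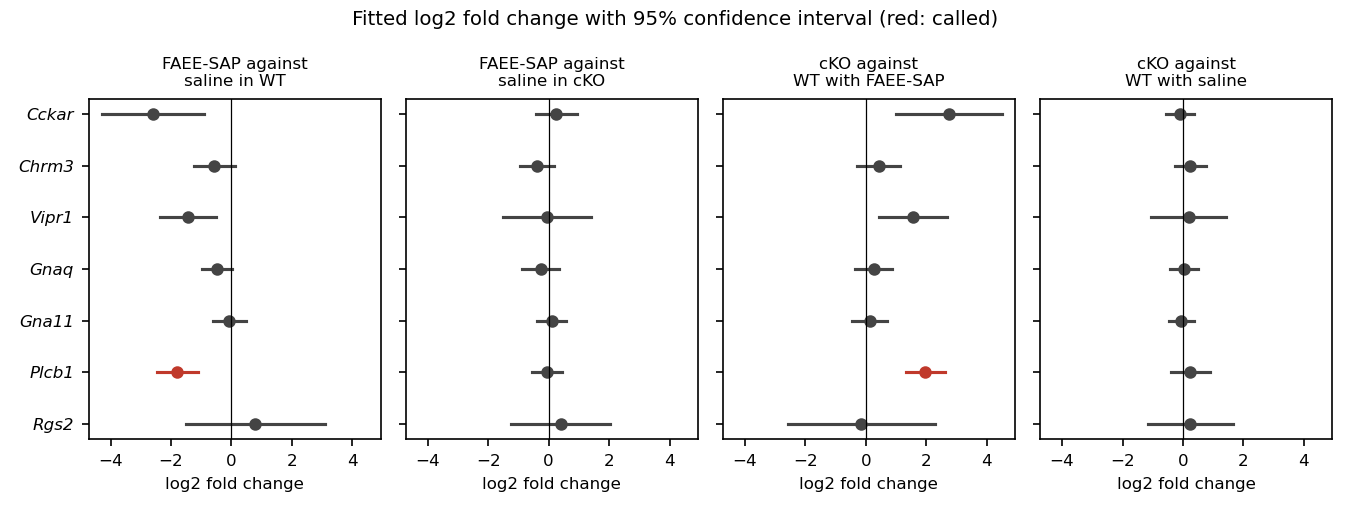
Fitted log2 fold change (horizontal axis) of the 7 members tested (rows) in 4 comparisons (panels), on the scale of log2(scaled RPKM + 0.1), with points for estimates and lines for 95% confidence intervals from limma. Red marks *Plcb1*, called at -1.79 with FAEE-SAP in WT and at 1.97 in cKO against WT with FAEE-SAP.

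Acinar marker genes moved in the same comparisons. With FAEE-SAP in WT, 11 of 12 acinar markers were called lower, with a median log2 fold change of -1.89, and the summed scaled RPKM of the 12 was 270771 and 231375 in WT saline and 75691 and 78070 in WT FAEE-SAP. It was 310548 and 315559 in cKO saline and 186524 and 209251 in cKO FAEE-SAP, where 0 of the 12 were called against saline (median log2 fold change -0.70) and 8 were called higher than in WT (median 1.36). None of the 12 was at 0 in any library. With FAEE-SAP in WT, 2 of 8 immune markers (summed 52.1 and 70.4 in saline, 127 and 94.3 in FAEE-SAP), 1 of 4 duct markers tested, and 1 of 3 fat markers were called higher, 1 of 6 islet markers was called lower, and 0 of 4 endothelial, 0 of 6 fibroblast or mural, and 0 of 2 neuron or glia markers tested were called. Between cKO and WT with FAEE-SAP, 2 of 6 islet markers were called higher in cKO (median 1.09 on the log2 scale), 1 of 8 immune markers was called lower in cKO, and none of the duct, endothelial, fibroblast or mural, neuron or glia, and fat markers tested were called. The part of these markers in the values of *Cckar* and *Plcb1* was not tested, and in whole tissue fewer acinar cells and less RNA per cell cannot be told apart.

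Ratios of 2 genes within a library do not depend on its scaling factor. The pairs were chosen after the values were seen and are descriptions without a test. *Cckar* over *Gna11* was 13.4 and 10.9 in WT saline, 3.88 and 1.10 in WT FAEE-SAP, 11.6 and 11.6 in cKO saline, and 11.1 and 14.7 in cKO FAEE-SAP, so the receptor was lower relative to its G protein in both WT FAEE-SAP libraries. *Cckar* over *Chrm3* was 50.3 and 43.7, 20.5 and 6.79, 30.9 and 43.2, and 44.0 and 75.6 in the same order of groups. Relative to acinar genes, the outcome depended on the denominator. With each of the 12 acinar markers in turn, *Cckar* was lower in both WT FAEE-SAP libraries than in both WT saline libraries for 2, overlapped for 9, and was higher for 1, and *Plcb1* was lower for 6, overlapped for 5, and was higher for 1. *Cckar* over *Nr5a2*, a nuclear receptor of acinar cells, was 11.9 and 13.8 in WT saline and 5.80 and 1.5 in WT FAEE-SAP, while over *Bhlha15*, a transcription factor of secretory cells, it was 2.54 and 2.04 against 6.23 and 2.88. Both cKO FAEE-SAP libraries were above the other 6 for 3 of the 12 denominators with *Cckar* and for 8 with *Plcb1*.

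*Plcb3*, another phospholipase that Gαq activates, did not fall with *Plcb1*. Scaled RPKM was 2.06 and 1.90 in WT saline, 3.88 and 3.23 in WT FAEE-SAP, 2.56 and 2.22 in cKO saline, and 2.05 and 1.91 in cKO FAEE-SAP. Both WT FAEE-SAP libraries were higher than the other 6, with a log2 fold change of 0.81 in WT (95% CI 0.30 to 1.32) that did not pass (limma, adjusted p = 0.0716) and that was 2.09 and called as deposited (limma, adjusted p = 0.00146). *Plcb3* over *Plcb1* was 2.16 and 2.86 in WT saline, 23.0 and 21.2 in WT FAEE-SAP, 2.64 and 2.32 in cKO saline, and 2.11 and 2.20 in cKO FAEE-SAP. The longest run their coding sequences share is 17 bases. *Plcb4* had a log2 fold change of -0.70 in WT (limma, adjusted p = 0.118) and 0.49 as deposited.

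**Figure D3:**
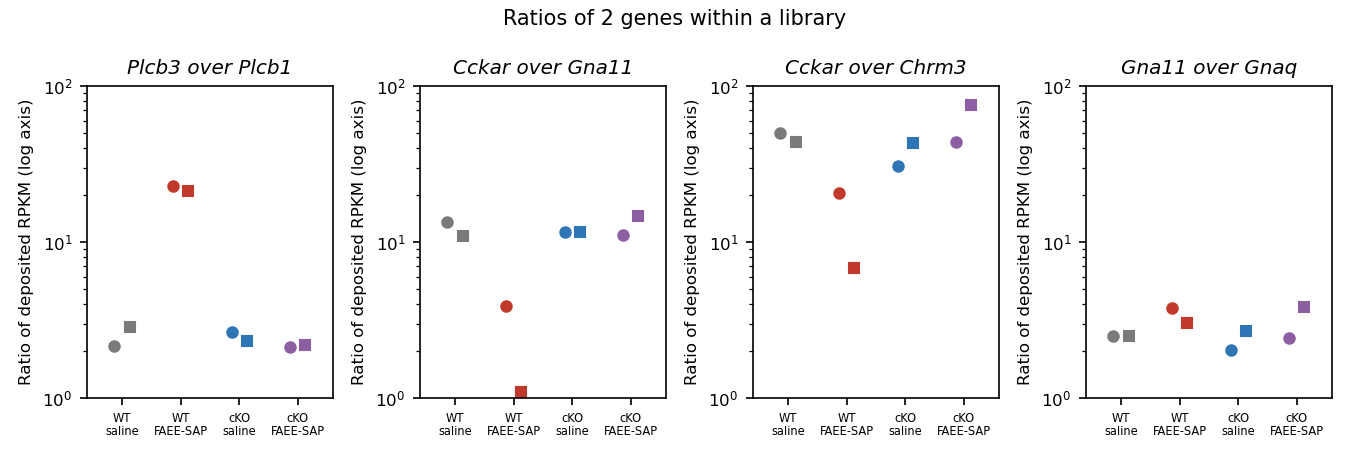
Ratio of the deposited RPKM of 2 genes within each library (vertical axis, log scale) by group (horizontal axis). Circles are replicate 1 and squares are replicate 2. *Plcb3* over *Plcb1* is 21.2 to 23.0 in WT FAEE-SAP and 2.11 to 2.86 in the other 6 libraries, and *Cckar* over *Gna11* is lowest in WT FAEE-SAP.

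A list of 145 other genes of secretagogue and G protein signaling (ligands, other receptors, G protein subunits, phospholipases, RGS proteins, kinases and arrestins, IP3 and diacylglycerol metabolism, and the cAMP arm) gave 73 genes tested with FAEE-SAP in WT. Of these, 37 were higher and 36 were lower, with a median log2 fold change of 0.00, and 6 were called, all lower, which is 8.22% of those tested against 3.78% of all genes called lower and 6.89% in either direction. Without scaling the split turned, with 43 called higher and 3 called lower, while over all genes it went from 339 higher and 412 lower to 7184 and 86. They belong to different steps of the pathway, and in this comparison 26 of the 73 (35.6%) had an unadjusted p under 0.05, against 27.8% of all genes tested. In cKO limma called 0 of 61, in cKO against WT with FAEE-SAP 0 of 76, with saline 0 of 57, and in the interaction 0 of 76. Unadjusted p-values under 0.05 numbered 1, 21, 0, and 14 in these, or 1.64%, 27.6%, 0%, and 18.4%, against 9.56%, 19.6%, 2.27%, and 12.6% of all genes tested. By role, the genes called in WT were 2 of 4 other stimulating receptors tested, 2 of 7 other Gα subunits, 1 of 6 other RGS genes, and 1 of 9 genes of IP3 receptors and IP3 metabolism, and 0 of 13 genes of diacylglycerol and protein kinase C and 0 of 14 genes of the cAMP arm were called.

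The largest of the 6 changes was that of *Rgs11*, of the RGS family that acts with the β subunit Gβ5. Its scaled RPKM was 20.2 and 9.0 in WT saline, 1.25 and 0.401 in WT FAEE-SAP, 7.18 and 13.5 in cKO saline, and 6.25 and 9.25 in cKO FAEE-SAP, and it fell by 4.05 on the log2 scale in WT (SE 0.57, limma, adjusted p = 0.0186), and its log2 fold change ran from -4.76 to -3.33 when 1 library was left out. The other receptor genes were *Vipr2*, which binds VIP as VIPR1 does, and *Grpr*, the receptor of gastrin-releasing peptide, which signals through Gq. *Vipr2* had 2.35 and 1.60 in WT saline, 0.376 and 0.117 in WT FAEE-SAP, 1.74 and 3.63 in cKO saline, and 1.54 and 2.01 in cKO FAEE-SAP, a log2 fold change of -2.67 in WT (limma, adjusted p = 0.0267). *Grpr* had 1.32 and 1.11, 0.239 and 0.138, 1.39 and 1.27, and 0.618 and 1.06 in the same order, a log2 fold change of -2.21 (limma, adjusted p = 0.0148). Like *Plcb1*, it was under 0.5 RPKM in both WT FAEE-SAP libraries and so entered the test through WT saline. *Vipr2* was at or over 0.5 RPKM in 1 of the 2. Reads in WT FAEE-SAP were few, about 27.9 and 21.9 for *Grpr* and 77.7 and 32.8 for *Vipr2*. The WT FAEE-SAP libraries were the lowest of the 8 for *Rgs11*, *Vipr2*, and *Grpr*, as for 18.1% of 11133 genes. These genes were named because they were called lower there, so this order largely follows from the choice.

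The Gα genes called were *Gnai1*, which inhibits adenylyl cyclase, and *Gna14*, another member of the Gq family. *Gnai1* had 4.74 and 4.58 in WT saline, 1.62 and 1.41 in WT FAEE-SAP, 5.29 and 3.91 in cKO saline, and 4.05 and 3.88 in cKO FAEE-SAP (log2 fold change in WT -1.56, limma, adjusted p = 0.0134). *Gna14* had 1.92 and 1.64, 0.853 and 0.728, 1.84 and 1.54, and 0.972 and 1.68 in the same order (-1.08, limma, adjusted p = 0.0470). *Itpka*, the kinase that phosphorylates IP3, had a log2 fold change of -1.49 in WT (limma, adjusted p = 0.0385). It rested on about 43.8 and 39.8 reads in WT FAEE-SAP and 58.7 and 51.8 in WT saline. Of the 6, *Rgs11*, *Vipr2*, and *Grpr* were also called as deposited, *Gnai1* (-0.29) and *Itpka* (-0.34) were not, and *Gna14* changed sign to 0.14. Leaving out 1 library ended the call of *Vipr2*, *Gnai1*, *Itpka*, and *Gna14* for each of the 4 libraries (limma, adjusted p = 0.0524 to 0.202), and of *Rgs11* and *Grpr* for all but WT saline replicate 2. In cKO against WT with FAEE-SAP the 6 had log2 fold changes of 0.64 to 3.23, none called (limma, adjusted p = 0.0545 to 0.333). As deposited, *Rgs11* (2.36, limma, adjusted p = 0.0172) and *Vipr2* (1.83, adjusted p = 0.0265) passed there, and *Gna14* turned to -0.25.

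**Figure D4:**
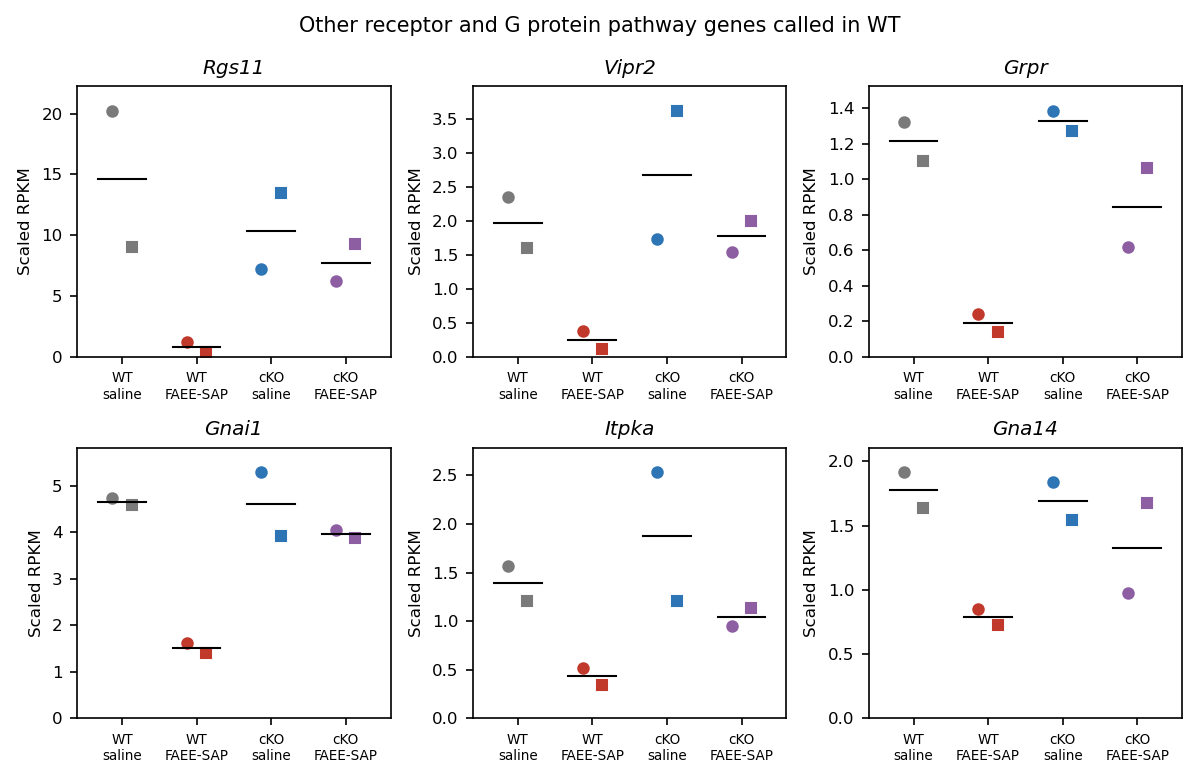
Scaled RPKM (vertical axis, from 0) of the 6 genes of the pathway list called with FAEE-SAP in WT, in each library of the 4 groups (horizontal axis). Circles are replicate 1, squares are replicate 2, and lines are means of 2 libraries. Each gene has both WT FAEE-SAP libraries under the WT saline libraries, as in *Rgs11* at 1.25 and 0.401 against 20.2 and 9.0. The genes were picked by that comparison, so this order largely follows from the choice.

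The response in each genotype can be set side by side. Among the 61 genes of the pathway list tested in both, the log2 fold change with FAEE-SAP ranged from -4.05 to 2.68 in WT and from -0.71 to 0.83 in cKO, and it was farther from 0 in WT for 46 (75.4%), against 65.5% of all 9338 genes tested in both. Among the 7 members it ranged from -2.60 to 0.79 in WT and from -0.38 to 0.40 in cKO, and it was farther from 0 in WT for 6, with *Gna11* the exception. The gene at 2.68 in WT was *Itpkc*, another IP3 kinase, named after its value was seen, which did not pass (limma, adjusted p = 0.0593).

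**Figure D5:**
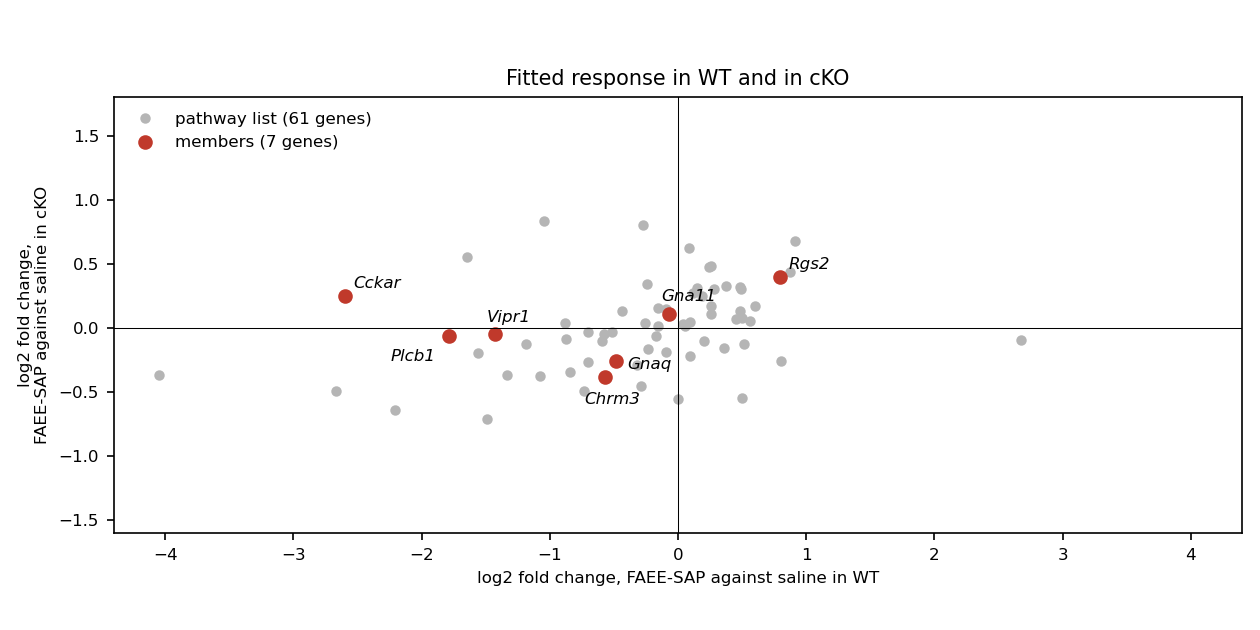
Log2 fold change with FAEE-SAP against saline in WT (horizontal axis) and in cKO (vertical axis) for the 7 members tested (red) and the 61 genes of the pathway list tested in both genotypes (gray). Points spread from -4.05 to 2.68 along the WT axis and from -0.71 to 0.83 along the cKO axis.

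The genes whose levels followed *Cckar* most closely over the 8 libraries, out of 11133, were *Muc1* (Pearson r = 0.987), *P2rx1* (r = 0.984), and *Sepp1* (r = 0.980). *P2rx1*, an ATP-gated cation channel, had 19.9 and 15.6 in WT saline, 7.08 and 1.39 in WT FAEE-SAP, 17.2 and 15.2 in cKO saline, and 20.1 and 17.3 in cKO FAEE-SAP, with the same low library in WT FAEE-SAP. For *Plcb1* they were *Cep76* (r = 0.988), *Sept11* (r = 0.986), and *Fhl1* (r = 0.985). *Fhl1* had 0.615 and 0.565 in WT FAEE-SAP and 1.40 to 1.91 in the other libraries. These r values are a description over 8 libraries that share their scaling, depth, and groups.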

How the data were processed

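Whole-pancreas RNA was sequenced in 8 libraries, 2 per group. Per the study's methods, the authors made libraries with a directional kit, trimmed reads with fastp, and mapped them to GRCm38.p6 in CLC Genomics Workbench. They deposited gene RPKM values, and whether counting used strand is not given in the sources used here. Reads per gene were estimated from RPKM and exon length for 46319 of 48709 genes (95.1%). Values under 20 reads came out whole within 0.1 for 84.5% to 85.9%, so no count test was run.

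RPKM was divided by a median-of-ratios factor over all 8 libraries. Genes with at least 0.5 RPKM in at least 2 libraries of a comparison were tested with limma 3.58.1 (R 4.3.3, trended variance prior) on log2(scaled RPKM + 0.1). P-values were Benjamini-Hochberg adjusted over all genes tested, and called genes had an adjusted p under 0.05 and at least a 2-fold change. Alternatives covered scaling, filter, pseudocount, trend, samples in the fit, block, threshold, and each library left out.

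The 9 members and the pathway and marker lists were chosen with earlier results of these data known. Named were all members, at most 12 called pathway genes per comparison, and the 3 genes most correlated with *Cckar* and with each called member. At gene level, scaled *Pfkfb3* RPKM overlapped between genotypes with saline and with FAEE-SAP (WT 1.85 and 3.21, cKO 1.74 and 2.82). Before scaling, the genotypes overlapped with saline only. After FAEE-SAP the unscaled cKO libraries (1.82 and 2.75) lay under those of WT (3.75 and 6.22). That separation depended on the scaling, so *Pfkfb3* does not settle the genotype labels. A stretch of the *Gnaq* and *Gna11* sequences is not reported here.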

Additional observations from a re-analysis of the deposited data

How the results depend on the processing

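With 2 libraries a group, calls of single genes depended on the settings. With values as deposited, log2 fold changes changed sign for *Chrm3* (0.65), *Gnaq* (0.78), and *Gna11* (1.23) with FAEE-SAP in WT, and for *Chrm3* (0.22), *Vipr1* (0.55), *Gnaq* (0.36), and *Plcb1* (0.52) in cKO. They changed sign for *Chrm3* (-0.47), *Gnaq* (-0.67), and *Gna11* (-0.83) in cKO against WT with FAEE-SAP, for *Chrm3* (-0.048), *Vipr1* (-0.096), *Gnaq* (-0.26), *Plcb1* (-0.027), and *Rgs2* (-0.031) with saline, and for *Chrm3* (-0.43), *Gnaq* (-0.41), and *Gna11* (-0.48) in the interaction.

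With FAEE-SAP in WT, 1 member and 6 pathway genes were called (all genes 751). The counts were 0 and 1 with no filter (all genes 269) and 0 and 3 at an RPKM minimum of 2 (all genes 622). They were 0 and 3 at a pseudocount of 1 (all genes 431) and 3 and 13 by unadjusted p (all genes 1298). There were 46 pathway genes as deposited (all genes 7270), and 2 members with all 8 libraries in 1 model (all genes 843 against 751). In cKO against WT with FAEE-SAP, with 1 member and 0 pathway genes called, the counts were 0 members with no filter, 0 and 2 at an RPKM minimum of 2, 0 and 2 at a pseudocount of 1, and 3 and 9 by unadjusted p. Calls over all genes at these settings are not set beside them, so these counts do not set the members apart from other genes. There were 30 pathway genes as deposited (2 higher, 28 lower), where all genes gave 73 higher and 4354 lower, and 4 with all 8 libraries in 1 model, where all genes gave 296 against 129. In the interaction, 5 pathway genes were called as deposited, all lower (all genes 21 higher and 770 lower), and 2 members and 10 pathway genes by unadjusted p (all genes 782). *Plcb1* cannot be tested at an RPKM minimum of 2. The causes of these moves were not tested.

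Same-numbered libraries shared only a number, with correlations of their deviations of -0.17 (WT), 0.40 (cKO), 0.30 (FAEE-SAP), and -0.32 (saline). With a replicate block, 2 members (*Plcb1*, and *Cckar* at an adjusted p of 0.0430 in limma) were called with FAEE-SAP in WT, where all genes called were 533. The block gave 3 members (*Plcb1*, *Cckar* at 0.0389, and *Vipr1* at 0.0295) and 6 pathway genes in cKO against WT with FAEE-SAP, where all genes called went from 129 to 717. With the numbers crossed, added after seeing the data, the same 3 members were called in WT (all genes 1110). The crossed pairing was chosen because the same-numbered correlation was negative (-0.17). It was thus picked from the spread that it removes, and its calls are not counted as support.

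Leaving out 1 library leaves 1 library in a group, so only effect sizes are compared here. With FAEE-SAP in WT, calls over all genes fell whichever library was left out, so a lost call is not particular to a member. Log2 fold changes that changed sign ranged, with FAEE-SAP in WT, from -0.29 to 0.15 for *Gna11* and from -0.71 to 2.30 for *Rgs2*. In cKO they ranged from -0.062 to 0.56 for *Cckar*, -0.70 to 0.60 for *Vipr1*, -0.14 to 0.011 for *Plcb1*, and -0.35 to 1.14 for *Rgs2*. In cKO against WT with FAEE-SAP they ranged from -0.096 to 0.34 for *Gna11* and -1.66 to 1.35 for *Rgs2*, and with saline from -0.22 to 0.010 for *Cckar*, -0.35 to 0.73 for *Vipr1*, -0.13 to 0.19 for *Gnaq*, and -0.50 to 0.99 for *Rgs2*. In the interaction they ranged from -0.12 to 0.49 for *Chrm3*, -0.042 to 0.40 for *Gna11*, and -1.91 to 1.11 for *Rgs2*.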
